A study of Mus musculus with 12 samples.

Results

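Type I interferon-stimulated genes were described in mouse splenic B cells that lack or carry Pdap1, after 2 ways of stimulating them in culture. The list held 40 genes, given by symbol, and all 40 were found by their Ensembl identifiers among the 55536 genes of the count table. They comprised 4 RNA and nucleic acid sensors, 3 STAT and IRF factors, 5 members of the oligoadenylate synthetase (OAS) family and 13 antiviral effectors such as the Ifit genes. The others were 7 enzymes of ISG15, ubiquitin or ADP-ribose conjugation, 7 GTPases and the peptide transporter gene Tap1. All 40 passed the filter on low counts in each comparison.

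Type I interferons bind a receptor made of Ifnar1 and Ifnar2, and the kinases Jak1 and Tyk2 then activate STAT factors, among them Stat2. With Irf9 these form a complex that binds the interferon-stimulated response element (ISRE) in the promoters of its target genes. The products of these genes detect foreign nucleic acid, degrade or trap viral RNA and virions, and feed back on the pathway. Irf7 carries the response further by inducing interferon genes, and Usp18 dampens signalling at the receptor. Many of the GTPases and Tap1 also respond to interferon gamma. LPS, which was present in every culture here, can induce interferon beta through Tlr4 in myeloid cells.

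The control mice carried 1 copy of a Cre allele that is active in B cells, and no floxed Pdap1. The Pdap1-deficient mice, labelled PDAP1 KO, carried the same Cre allele with both Pdap1 alleles floxed around 1 exon, so that deletion depends on Cre activity in B cells and other cells keep the gene. All mice were on a C57BL/6 background, and their ages are not given per sample. Splenic B cells were taken from 3 mice of each genotype and cultured for 48 h either with LPS and IL-4 (LPS-IL-4, a stimulus for IgG1 switching) or with LPS, BAFF and TGFβ (LPS-BAFF-TGFβ, a stimulus for IgG2b switching). The 4 groups held 3 libraries each, 12 in all. Both cultures of a mouse came from the same animal, per the series description. The labels also name CH12, a B lymphoma line, as the cell line of every sample, whereas the study's methods describe primary cells.

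Totals ran from 9386667 to 15869143 counts per LPS-IL-4 library. The LPS-BAFF-TGFβ libraries held between 4579793 and 8303482, except that of control mouse 1, which held 69500640. The summed level of 6 B cell markers lay between 3090 and 3460 CPM (counts relative to library totals scaled by the TMM method) in the LPS-IL-4 cultures and from 2170 to 2420 CPM in the others. Pdap1 was at 91.4 to 97.8 CPM in control and 23.3 to 29.9 CPM in Pdap1-deficient cells with LPS-IL-4, and fell by 1.82 on the log2 scale (adjusted p = 3.52e-05, edgeR). With LPS-BAFF-TGFβ it was at 80.3 to 199 CPM in control and 23.0 to 26.4 CPM in Pdap1-deficient cells (log2 fold change -2.33, adjusted p = 0.0929, edgeR), and the highest of these values came from the deep library of control mouse 1. Myeloid transcripts set Pdap1-deficient mouse 2 apart in both cultures, and their values are given beside the results they move with.

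Promoter sequence is shown for the members below because the ISRE is the element through which the complex with Stat2 and Irf9 acts, and because these members rose with LPS-IL-4. The core was searched as GAAANNGAAA on either strand in RefSeq windows (GRCm38.p6) from 250 bases before to 50 bases after each gene start. Of the 40 members 30 had a window, and 16 of these 30 (53.3%) held at least 1 match, against 3.99% of the 27025 genes in the same table. The gamma-activated site core TTCNNNGAA, which reads the same on the other strand, was found in 7 of the 30 members (23.3%) and in 9.55% of all genes. By class the ISRE core was in 2 of 2 windows of sensors, 1 of 3 of STAT and IRF factors, 2 of 4 of the OAS family, 4 of 11 of effectors, 2 of 4 of the conjugation enzymes, 5 of 5 of GTPases and 0 of 1 for Tap1. Of the 16 members with the core 14 rose with LPS-IL-4 in control cells (median log2 fold change 1.29), and of the 14 without it 11 rose (median 1.14). Of all 14882 genes tested there, 9.33% rose, and the all-gene median was -0.03. A match is a description of the letters and not evidence of binding. The 150 bases just before the RefSeq start follow, 5′ to 3′ on the gene's strand, with each ISRE core match in capitals.
Isg15 (chr4:156200819-156200968, minus strand): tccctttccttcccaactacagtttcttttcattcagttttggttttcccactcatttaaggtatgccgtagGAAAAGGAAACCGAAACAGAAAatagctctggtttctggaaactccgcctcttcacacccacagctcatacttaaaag
Ifit1 (chr19:34640739-34640888, plus strand): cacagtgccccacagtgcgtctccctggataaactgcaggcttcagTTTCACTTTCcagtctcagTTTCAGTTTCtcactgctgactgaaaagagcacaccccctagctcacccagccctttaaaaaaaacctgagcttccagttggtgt
Rsad2 (chr12:26456453-26456602, minus strand): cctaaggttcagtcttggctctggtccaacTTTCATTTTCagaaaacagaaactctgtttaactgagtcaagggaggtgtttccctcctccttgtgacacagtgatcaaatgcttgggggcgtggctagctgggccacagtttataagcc
Oas3 (chr5:120777660-120777809, minus strand): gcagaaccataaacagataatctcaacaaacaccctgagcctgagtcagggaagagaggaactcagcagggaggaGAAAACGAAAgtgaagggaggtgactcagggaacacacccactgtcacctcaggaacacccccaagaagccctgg
In Isg15, which encodes a ubiquitin-like protein, 3 overlapping matches began between 78 and 66 bases before the start. In Ifit1, whose product binds foreign RNA, matches began 104 and 85 bases before the start. Rsad2 (viperin) held 1 match beginning at 120 bases and Oas3 1 match beginning at 75 bases before the start.

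The members were not expressed at one level. CPM divided by exon length (RPKM), the scale on which genes can be compared, put Gbp2 highest in control cells with LPS-IL-4, at 208 ± 13.4 (SD, n = 3), followed by Ifi27l2a at 161 ± 58.1, a difference smaller than the SD of Ifi27l2a. Gbp3 at 95.4 ± 1.55 and Trim30a at 95.4 ± 10.5 came next and overlapped within their SDs. Ifi44, at 0.909 ± 0.482 RPKM, was the lowest of the 40 in control cells with LPS-IL-4 and also with LPS-BAFF-TGFβ, at 0.225 ± 0.0305 RPKM. Together the members took between 0.455% and 0.527% of all counts in control cells with LPS-IL-4, and from 0.199% to 0.243% in the other culture.

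**Figure D1:**
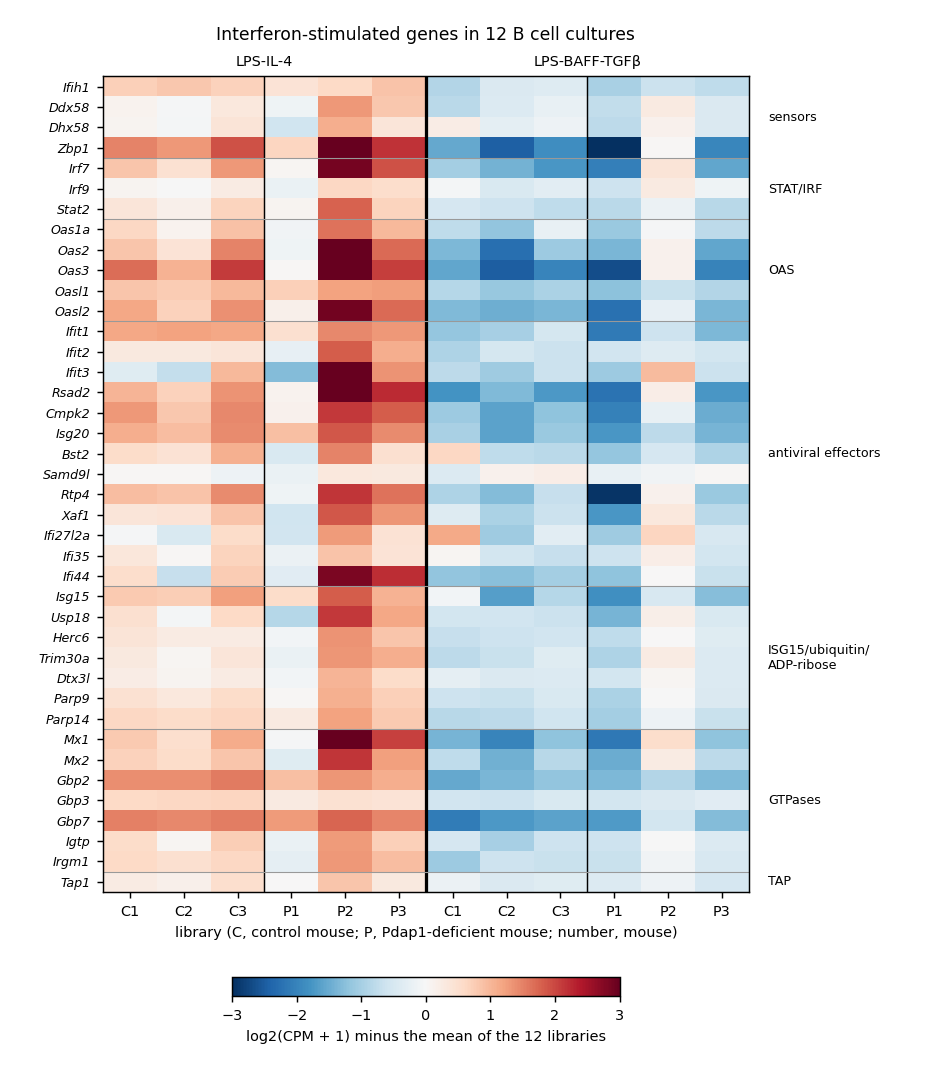
Level of the 40 interferon-stimulated genes (rows, by role) in the 12 libraries (columns), as log2(CPM + 1) minus the mean of the gene over the libraries. Most members were above their mean (red) in the LPS-IL-4 cultures and below it (blue) in the LPS-BAFF-TGFβ cultures, and within each culture Pdap1-deficient mouse 2 (P2) was highest and Pdap1-deficient mouse 1 (P1) lowest for most members.

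Most interferon-stimulated genes were higher in the LPS-IL-4 than in the LPS-BAFF-TGFβ cultures. In control cells 33 of the 40 members rose and 0 fell, against 9.33% and 9.99% of the 14882 genes tested, by edgeR's quasi-likelihood test at a Benjamini-Hochberg adjusted p under 0.05. A fit of all 12 libraries called 18 of the 40, and 2868 of 15794 genes in either direction. Leaving out 1 control mouse at a time called between 25 and 33 members, and between 921 and 4009 genes. The median log2 fold change of the members was 1.29, and the median over all genes was -0.03. In Pdap1-deficient cells the median was 1.71, with an all-gene median of 0.00, but only 9 of 40 members rose and 0 fell, against 5.89% and 5.57% of 14617 genes. That count was 4 without mouse 3, 11 without mouse 2 and 16 without mouse 1, 21 in the fit of all 12 libraries and 23 by DESeq2. Calls over all genes, in either direction, were 346 of 15290, 2398 of 14515 and 552 of 15035 without those mice in turn. They were 2144 of 15794 in the fit of all 12 libraries and 1796 of 28509 by DESeq2. When the mouse, from which both cultures came, was added as a block, 33 members rose in control cells (6.38% of all genes rose) and 39 of 40 in Pdap1-deficient cells (13.5%), the exception being Ifit2 (adjusted p = 0.214, edgeR). LPS-IL-4 was above LPS-BAFF-TGFβ in all 6 mice for 35 of 40 members and for 15.2% of 15794 genes. The difference between genotypes in this change was tested directly, and 0 of 40 members passed in either direction, as did 0% of all genes in both directions.

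Sensors were the first class. Zbp1, a sensor of left-handed nucleic acid that can start cell death, changed most among them. Its CPM with LPS-IL-4 was 71.8, 62.8 and 97.2 for the controls, mice 1 to 3 in that order, as in all lists that follow, and 39.9, 250 and 115 for the Pdap1-deficient animals. With LPS-BAFF-TGFβ it was 7.90, 3.77 and 6.09 in the controls and 2.26, 25.6 and 5.74 in Pdap1-deficient animals. Every LPS-IL-4 library was thus above every LPS-BAFF-TGFβ library. The log2 fold change of Zbp1 between cultures was 3.64 (SE 0.28, adjusted p = 1.18e-04, edgeR) in control cells and 3.67 (SE 1.23, adjusted p = 0.179, edgeR) in Pdap1-deficient cells. With the mouse as a block the latter was 3.77 (SE 0.199, adjusted p = 9.61e-06, edgeR). Values per gene, here and below, are from fits without that block unless it is named.

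Ifih1 (MDA5) and Ddx58 (RIG-I) recognise viral RNA and signal through Mavs. The CPM of Ifih1 with LPS-IL-4 was 268, 283 and 261 in the controls and 216, 245 and 292 in Pdap1-deficient animals. With LPS-BAFF-TGFβ the CPM of Ifih1 was 88.0, 120 and 124 in the controls and 82.4, 103 and 95.5 in Pdap1-deficient animals, so the cultures did not overlap. Ifih1 rose by a log2 fold change of 1.29 (SE 0.14) in control and 1.42 (SE 0.14) in Pdap1-deficient cells, with edgeR adjusted p = 4.16e-04 and 1.69e-04. Ddx58 was less separated. With LPS-IL-4 its CPM was 120, 108 and 139 in control and 101, 275 and 194 in Pdap1-deficient animals. With LPS-BAFF-TGFβ the CPM of Ddx58 was 62.5, 83.8 and 94.2 in control and 66.4, 133 and 81.9 in Pdap1-deficient animals, where mouse 2 was above 1 of the LPS-IL-4 libraries of its genotype. Its log2 fold change was 0.61 (SE 0.16, adjusted p = 0.0344, edgeR) in control and 1.02 (SE 0.48, adjusted p = 0.300, edgeR) in Pdap1-deficient cells. Blocked by mouse, the value in Pdap1-deficient cells was 0.97 (SE 0.11, adjusted p = 5.68e-05, edgeR). Of the 4 sensors 3 rose in control cells, and Dhx58, a regulator of both RNA sensors, did not pass.

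Of the STAT and IRF factors, Irf7, the regulator that amplifies interferon production, changed most. With LPS-IL-4 the CPM of Irf7 was 32.9, 24.9 and 46.0 in the controls and 18.8, 137 and 70.0 in Pdap1-deficient animals. With LPS-BAFF-TGFβ it was 8.38, 6.08 and 4.63 in the controls and 3.55, 23.7 and 5.39 in Pdap1-deficient animals. The LPS-BAFF-TGFβ library of Pdap1-deficient mouse 2 therefore overlapped the LPS-IL-4 library of Pdap1-deficient mouse 1, while within each mouse LPS-IL-4 was higher. Irf7 rose by a log2 fold change of 2.39 (SE 0.28, adjusted p = 8.02e-04, edgeR) in control cells, and in Pdap1-deficient cells the value was 2.85 (SE 1.16, adjusted p = 0.251, edgeR). With the mouse as a block the latter was 2.90 (SE 0.255, adjusted p = 0.000856, edgeR). Irf9, the DNA-binding partner of Stat2, had 81.2, 75.7 and 90.8 CPM with LPS-IL-4 in the controls and 66.7, 117 and 111 in Pdap1-deficient animals. With LPS-BAFF-TGFβ Irf9 had 73.4, 55.6 and 61.1 CPM in control and 49.2, 92.7 and 69.5 CPM in Pdap1-deficient animals. Irf9 did not pass in control cells (log2 fold change 0.38, SE 0.12, adjusted p = 0.0677, edgeR) although it was higher with LPS-IL-4 in all 6 mice. Stat2 rose in control cells by 1.06 (log2, SE 0.14, adjusted p = 0.00126, edgeR).

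All 5 OAS family genes rose in control cells, with a median log2 fold change of 2.68 and a range from 1.29 to 3.92. The OAS enzymes make the second messenger that activates RNase L, and Oasl1 is a relative that inhibits translation of Irf7. Oasl1 had the smallest p of the family. Its CPM with LPS-IL-4 was 181, 171 and 200 in the controls and 166, 234 and 242 in Pdap1-deficient animals. With LPS-BAFF-TGFβ the CPM of Oasl1 was 54.8, 45.1 and 51.6 in the controls and 42.1, 63.0 and 53.9 in Pdap1-deficient animals. The cultures were far apart in both genotypes, with log2 fold changes of 1.86 (SE 0.11, adjusted p = 1.46e-05, edgeR) in control and 2.01 (SE 0.19, adjusted p = 2.32e-04, edgeR) in Pdap1-deficient cells. Oas3, chosen after its values were seen, had the largest log2 fold change of the 40 members in control cells, at 3.92 (SE 0.39, adjusted p = 6.30e-04, edgeR).

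Among the 13 antiviral effectors 8 rose in control cells and 2 in Pdap1-deficient cells, and with the mouse as a block 8 and 12. Ifit1 had 109, 112 and 109 CPM with LPS-IL-4 in the controls and 67.9, 133 and 120 CPM in Pdap1-deficient animals. With LPS-BAFF-TGFβ it had 20.9, 23.6 and 33.2 CPM in control and 10.3, 30.8 and 18.3 CPM in Pdap1-deficient animals, so that the cultures did not overlap. Its log2 fold change was 2.10 (SE 0.17, adjusted p = 8.48e-05, edgeR) in control and 2.45 (SE 0.49, adjusted p = 0.0388, edgeR) in Pdap1-deficient cells. Samd9l, which restricts viral replication and had the highest CPM of the class, showed no separation of the cultures. It had 433, 431 and 380 CPM with LPS-IL-4 and 316, 460 and 482 CPM with LPS-BAFF-TGFβ in control mice. In Pdap1-deficient mice Samd9l had 366, 524 and 511 CPM with LPS-IL-4 and 362, 388 and 430 CPM with LPS-BAFF-TGFβ. The log2 fold change of Samd9l was -0.02 (SE 0.16, adjusted p = 0.947, edgeR) in control cells, and its sign changed with the settings. Ifi44, a low member of the class, had 6.59, 2.25 and 7.89 CPM with LPS-IL-4 in the controls and 3.19, 36.5 and 23.5 CPM in Pdap1-deficient animals. With LPS-BAFF-TGFβ it had 1.33, 1.22 and 1.58 CPM in control and 1.29, 4.34 and 2.34 CPM in Pdap1-deficient animals. Ifi44 rose in control cells by a log2 fold change of 2.02 (SE 0.45, adjusted p = 0.0158, edgeR). The 5 effectors that did not pass in control cells were Samd9l, Ifi27l2a, Bst2, Ifi35 and Ifit3.

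The deep library of control mouse 1 moved with some of these results. Ifi27l2a, Isg15 and Bst2 are the 3 shortest members, with 463, 756 and 903 exon bases, and in that library they were 3.50, 2.28 and 2.78 times the mean of control mice 2 and 3, which are the 3 largest ratios of the 40. Ifi27l2a had 156 CPM there against 33.0 and 56.3 CPM in control mice 2 and 3. In the mice other than control mouse 1, Ifi27l2a was higher with LPS-IL-4 in 5 of 5 (log2 differences from 0.51 to 0.92), and in control mouse 1 the difference was -1.19. The part of read depth or library preparation in these values was not tested. Without control mouse 1 the number of members that rose in control cells was again 33.

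All 7 genes of ISG15, ubiquitin and ADP-ribose conjugation rose in control cells, by log2 fold changes from 0.55 to 1.69. Parp14, a mono-ADP-ribosyl transferase, had the highest CPM of the class. With LPS-IL-4 its CPM was 553, 525 and 563 in control and 433, 828 and 618 in Pdap1-deficient animals. With LPS-BAFF-TGFβ the CPM of Parp14 was 203, 210 and 237 in control and 178, 327 and 226 in Pdap1-deficient animals, and the cultures did not overlap. Parp14 rose by 1.33 (log2, SE 0.10, adjusted p = 4.65e-05, edgeR) in control and by 1.36 (log2, SE 0.32, adjusted p = 0.0464, edgeR) in Pdap1-deficient cells. Dtx3l, a ubiquitin ligase that works with Parp9, had 174, 157 and 178 CPM with LPS-IL-4 in the controls and 141, 303 and 218 CPM in Pdap1-deficient animals. With LPS-BAFF-TGFβ Dtx3l had 124, 110 and 113 CPM in control and 101, 155 and 112 CPM in Pdap1-deficient animals. It rose by 0.55 (log2, SE 0.09, adjusted p = 0.00361, edgeR) in control cells. Dtx3l and Parp9 lie on opposite strands of chromosome 16 and share 458 exon bases, and since the strand setting of the counting is not given, reads in that stretch cannot be told apart.

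All 7 GTPases rose in control cells, and Gbp2, Gbp3 and Gbp7 also rose in Pdap1-deficient cells. With the mouse as a block all 7 rose in Pdap1-deficient cells. The guanylate-binding proteins act at the membranes of intracellular pathogens, the immunity-related GTPases Igtp and Irgm1 on pathogen vacuoles and autophagy, and the Mx proteins on viral ribonucleoprotein. With LPS-IL-4 the CPM of Gbp2 was 502, 507 and 563 in the controls and 355, 479 and 407 in Pdap1-deficient animals. With LPS-BAFF-TGFβ the CPM of Gbp2 was 64.8, 73.6 and 82.9 in control and 73.9, 104 and 75.6 in Pdap1-deficient animals. Gbp2 rose by 2.83 (log2, SE 0.12, adjusted p = 4.06e-06, edgeR) in control cells and by 2.29 (log2, SE 0.17, adjusted p = 3.05e-05, edgeR) in Pdap1-deficient cells, the smallest adjusted p of the 40 members in each genotype. Mx2 is annotated as a polymorphic pseudogene. Igtp shares 162 exon bases with its relative Irgm2, and Gbp7 shares 637 with a processed pseudogene, so their counts may be split or mixed. Members of other classes overlap other genes too, the largest shares of exon bases being 16.8% in Ifi35, 13.9% in Rtp4 and 13.7% in Herc6.

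Tap1 carries peptides into the endoplasmic reticulum for MHC class I. It had 248, 231 and 297 CPM with LPS-IL-4 in control and 211, 372 and 256 CPM in Pdap1-deficient animals. With LPS-BAFF-TGFβ Tap1 had 186, 154 and 161 CPM in control and 156, 189 and 147 CPM in Pdap1-deficient animals. The cultures did not overlap within a genotype. Tap1 rose by 0.63 (log2, SE 0.12, adjusted p = 0.00766, edgeR) in control cells, and in Pdap1-deficient cells the log2 fold change was 0.77 (SE 0.21, adjusted p = 0.0560, edgeR). With the mouse as a block the latter was 0.74 (SE 0.09, adjusted p = 6.43e-05, edgeR).

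**Figure D2:**
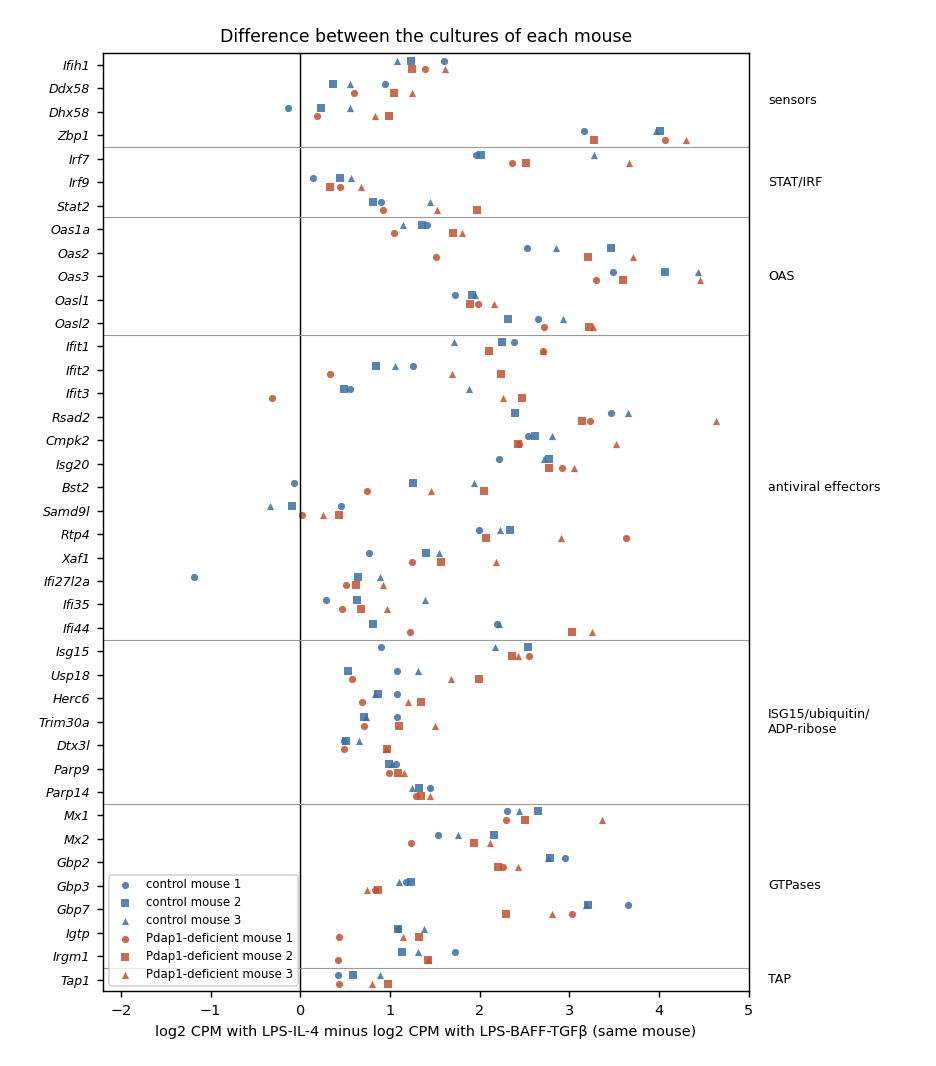
Difference in log2 CPM (prior count 2) between the LPS-IL-4 and the LPS-BAFF-TGFβ culture of each mouse, for each of the 40 genes, with control mice in blue and Pdap1-deficient mice in orange. Points to the right of the line were higher with LPS-IL-4, as all 6 were for 35 genes.

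**Figure D3:**
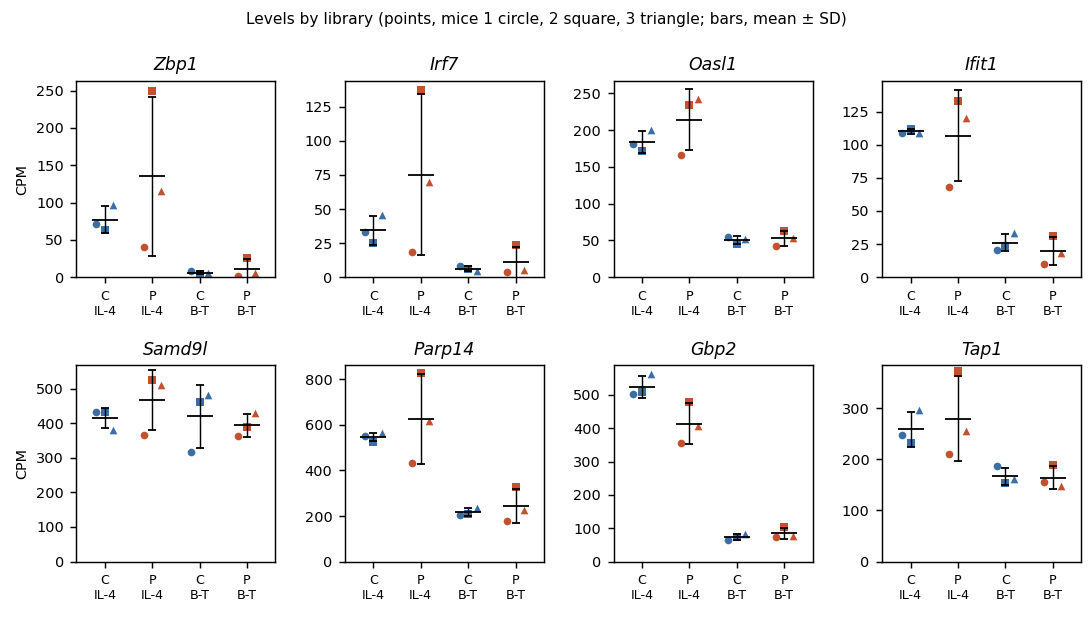
CPM of 8 members in each library by group (C, control; P, Pdap1-deficient; IL-4, LPS-IL-4; B-T, LPS-BAFF-TGFβ), with points for mice and bars for the mean ± SD of 3 mice. Samd9l is the one whose cultures overlapped in both genotypes, and the Pdap1-deficient mice were more spread than the control mice for Zbp1, Irf7 and Parp14 with LPS-IL-4.

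Between genotypes no member passed the test. With LPS-IL-4, 0 of 40 members were called higher and 0 lower by edgeR, against 2.79% and 2.12% of 15074 genes. At an unadjusted p under 0.05 there were 0 higher and 2 lower, against 12.1% and 11.7% of genes, and DESeq2's Wald test called 1 member, Gbp2, lower (4.81% of genes). With LPS-BAFF-TGFβ, 0 of 40 were called in either direction by edgeR and by DESeq2, against 0.455% of 14079 genes called higher and 0.0071% called lower by edgeR. There 1 member, Gbp7, was higher at an unadjusted p under 0.05 and 0 were lower, against 5.27% and 5.28% of genes. For the difference of the genotype effect between cultures, 0 members were higher and 2 lower at an unadjusted p under 0.05 (3.17% and 1.61% of genes). DESeq2 called 0 members there and 6 of 31696 genes.

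The fitted values of the members lay mostly above 0, and their position depended on both Pdap1-deficient mouse 1 and Pdap1-deficient mouse 2. The median log2 fold change of Pdap1-deficient over control cells was 0.38 with LPS-IL-4 (35 members above and 5 below 0) and 0.18 with LPS-BAFF-TGFβ (31 above and 9 below), with all-gene medians of 0.02 and 0.01. Without mouse 2, which had 337 and 566 CPM of summed myeloid markers, the medians were -0.01 and -0.15. Without mouse 1, the lowest for most members, both medians were higher than with all mice, as given below. The standard errors were large, and ran up to 1.44 with LPS-IL-4, for Ifit3, whose log2 fold change was 2.13. Irf7 stood at 1.10 (SE 0.78, adjusted p = 0.467, edgeR) and Ifi44 at 1.90 (SE 1.02, adjusted p = 0.346, edgeR) with LPS-IL-4. These values do not show that the genotypes were alike. With LPS-IL-4 no member was higher in all Pdap1-deficient than in all control libraries and 2 were lower in all, against 15.5% and 16.1% of genes, and with LPS-BAFF-TGFβ the groups overlapped for all 40, against 9.55% of genes with no overlap higher and 9.08% lower.

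The 2 members below the controls were Gbp2 and Gbp3, which lie on the plus strand of chromosome 3 (GRCm38) from 142620602 to 142638008 and from 142560026 to 142573209. The values of Gbp2 are given above. Gbp3, named after its values were seen, had 306, 311 and 316 CPM in control and 245, 277 and 268 CPM in Pdap1-deficient cells with LPS-IL-4. The log2 fold change was -0.35 for Gbp2 (SE 0.12, adjusted p = 0.111, edgeR) and -0.25 for Gbp3 (SE 0.09, adjusted p = 0.139, edgeR). In the LPS-BAFF-TGFβ cultures the values were 0.20 (SE 0.16) and 0.12 (SE 0.11), and the test of the difference between cultures gave adjusted p = 0.983 (edgeR) for both genes.

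**Figure D4:**
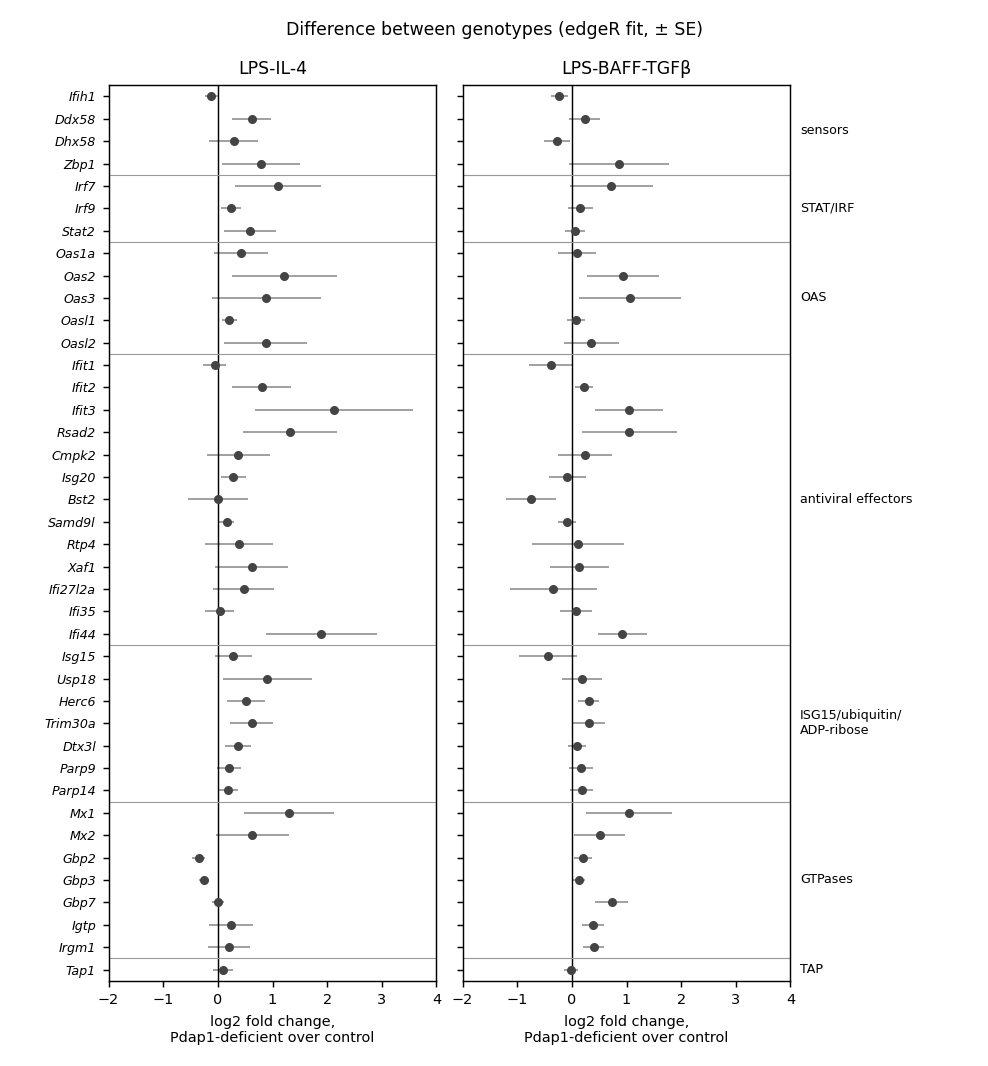
Log2 fold change of Pdap1-deficient over control cells for each of the 40 genes with LPS-IL-4 (left) and LPS-BAFF-TGFβ (right), as fitted by edgeR from 3 mice per group, with bars for ± 1 SE. No gene passed an adjusted p under 0.05, and the longest bars belong to Ifit3, Ifi44, Oas3, Oas2 and Rsad2 in the left panel.

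The Pdap1-deficient mice were spread more widely than the control mice. For each library the deviation of each member from the control mean of that culture was taken on the log2 scale. With LPS-IL-4 the median deviation over the 40 members was -0.01, -0.19 and 0.26 for the controls and -0.61, 1.02 and 0.42 for the Pdap1-deficient animals. With LPS-BAFF-TGFβ it was 0.09, -0.14 and 0.10 for the controls and -0.37, 0.70 and 0.03 for the Pdap1-deficient animals. The order of the 3 Pdap1-deficient mice was the same in both cultures. With LPS-IL-4 Pdap1-deficient mouse 1 was the lowest of 6 libraries for 39 of 40 members and mouse 2 the highest for 36. With LPS-BAFF-TGFβ mouse 1 was lowest for 25 and mouse 2 highest for 32 members. How often each library was lowest or highest over all genes was not counted. The SD of the median deviation was 0.84 in Pdap1-deficient and 0.23 in control mice with LPS-IL-4, and 0.56 and 0.13 with LPS-BAFF-TGFβ. Mouse 2 also differed over all genes with LPS-IL-4. The chi-square of its counts per degree of freedom was 45.22 against mouse 1 and 29.05 against mouse 3. It was 9.958 between mice 1 and 3, and 8.791 to 10.54 between controls. With LPS-BAFF-TGFβ it was 37.56 between mice 1 and 2, 68.22 between mice 1 and 3, and 13.09 between mice 2 and 3. In that culture mouse 1, and not mouse 2, thus differed most from the others. The value grows with library size, which for mouse 2 was largest with LPS-IL-4 and smallest with LPS-BAFF-TGFβ. The median for Pdap1-deficient mouse 2 was above 0 in each of the 7 classes in both cultures, from 0.53 for Tap1 to 1.84 for the OAS family with LPS-IL-4 and from 0.19 to 1.26 for the same classes with LPS-BAFF-TGFβ.

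Leaving out 1 of these mice changed the genotype comparison with LPS-IL-4. Mice 1 and 2 are detailed because they were the lowest and highest for these same members, so the calls below partly follow from that choice. The calls also rest on only 2 remaining Pdap1-deficient mice. Without Pdap1-deficient mouse 1, 15 members were called higher (6.05% of genes were), among them Trim30a at a log2 fold change of 0.95 (SE 0.13, adjusted p = 0.00586, edgeR) and Ifit2 at 1.18 (SE 0.18, adjusted p = 0.00793, edgeR). Without Pdap1-deficient mouse 2, no member was called higher, 2 were called lower (4.49% of genes were), and 19 members lay above and 21 below 0. Those 2 were Gbp2 (-0.45, SE 0.08, adjusted p = 0.00250, edgeR) and Gbp3 (-0.28, SE 0.07, adjusted p = 0.0209, edgeR). The median log2 fold change without mouse 1 was 0.76. With LPS-BAFF-TGFβ the median was 0.40 without mouse 1. Without mouse 1 or mouse 2, 0 members were called there, against 28 of 14654 and 33 of 14440 genes in turn.

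Myeloid and T cell transcripts were highest in Pdap1-deficient mouse 2 in both cultures, and erythroid transcripts were highest in Pdap1-deficient mice 2 and 3. Of 8 myeloid markers all 8 had counts, and their summed level with LPS-IL-4 was 5.22 to 13.8 CPM in the controls and 7.0, 337 and 34.5 CPM in Pdap1-deficient mice 1, 2 and 3. With LPS-BAFF-TGFβ it was 16.4 to 25 CPM in control and 11.9, 566 and 79.1 CPM in Pdap1-deficient animals. Lyz2 (lysozyme M) alone had 94.0 CPM in Pdap1-deficient mouse 2 with LPS-IL-4 and at most 9.62 CPM in the other LPS-IL-4 libraries. The Pdap1-deficient mice thus had the same order for myeloid transcripts as for the members. The 7 T cell markers summed to 19.7 CPM in Pdap1-deficient mouse 2 and to between 0.778 and 7.97 CPM in the other LPS-IL-4 libraries, and with LPS-BAFF-TGFβ to 9.5 CPM against 0.323 to 4.38 CPM. The 6 NK cell markers summed to 3.47 CPM in that mouse and to between 0.809 and 3.15 CPM in the others with LPS-IL-4, but with LPS-BAFF-TGFβ to 1.45 CPM, within the 0.763 to 1.82 CPM of the others. Of 5 markers of plasmacytoid dendritic cells, the main producers of interferon alpha, Cd209d was at 0 in all 12 libraries and Siglech at no more than 0.304 CPM with LPS-IL-4 and 1.49 CPM with LPS-BAFF-TGFβ. Their summed level was 12.6 CPM in Pdap1-deficient mouse 2 and between 4.95 and 7.72 CPM in the other LPS-IL-4 libraries, and 7.43 against 2.7 to 6.34 CPM with LPS-BAFF-TGFβ. The 4 erythroid markers summed to 19.9 and 23.6 CPM in Pdap1-deficient mice 2 and 3 and to between 8.0 and 11 CPM in the other LPS-IL-4 libraries, and to 19.8 and 18.4 CPM against 8.88 to 11 CPM with LPS-BAFF-TGFβ. Mice of both sexes were present in both groups. Xist, transcribed from the inactive X chromosome, was at 718 to 839 CPM with LPS-IL-4 in control mice 1 and 3 and Pdap1-deficient mouse 1, and at 0.989 to 1.95 CPM in the other 3 mice, which carried the Y-linked Ddx3y at 209 to 267 CPM. Pdap1-deficient mouse 1, the lowest for the members, was thus the only Pdap1-deficient animal with Xist, while among the controls the lowest, mouse 2, was the one without it. The part of sex and of these cells in the members' values was not tested. In bulk RNA, fewer cells of a type and less RNA per cell cannot be told apart.

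The myeloid transcripts went the other way between cultures. In each of the 6 mice their sum was higher in the LPS-BAFF-TGFβ culture, whereas most members were higher with LPS-IL-4 in each mouse. Members higher with LPS-IL-4 numbered 37, 39 and 39 of 40 for the controls and 39, 40 and 40 for the Pdap1-deficient animals. The median difference within a mouse was between 1.24 and 1.5 (log2) in control and between 1.13 and 1.95 in Pdap1-deficient animals. It was largest in Pdap1-deficient mouse 2 and smallest in Pdap1-deficient mouse 1.

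**Figure D5:**
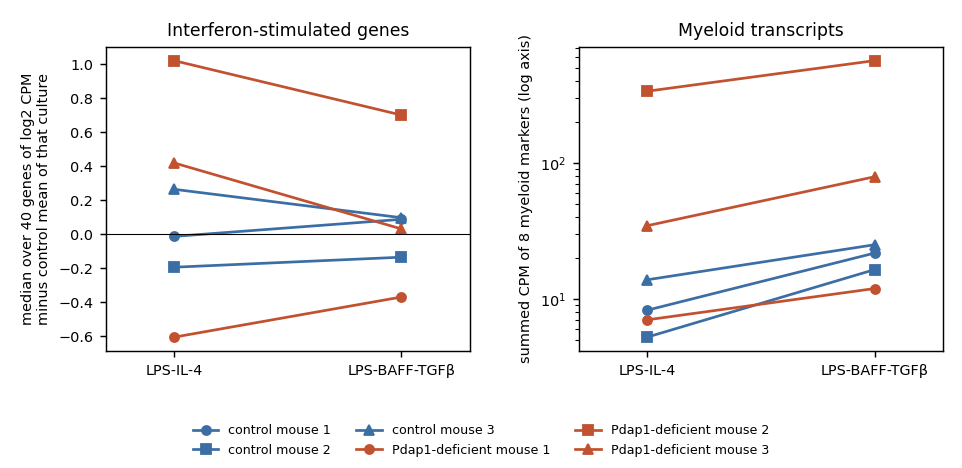
Left, median over the 40 genes of log2 CPM minus the control mean of the same culture, for each mouse in both cultures. Right, summed CPM of 8 myeloid markers on a log axis; Pdap1-deficient mouse 2 (squares, orange) was highest in both panels, at 1.02 and 0.70 on the left and at 337 and 566 CPM on the right.

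The interferon genes themselves were nearly silent. Of 19 interferon genes, 14, with Ifnb1 among them, had no count in any of the 12 libraries, which allows up to 3 counts in each library. Ifna4, Ifna13 and Ifnab had 2, 10 and 1 counts over all libraries, and Ifng had 27. Ifnk, the keratinocyte type I interferon, was the only one that passed the filter in a comparison, at 1.62 to 2.47 CPM with LPS-IL-4 and at most 0.318 CPM with LPS-BAFF-TGFβ in control mice. It rose with LPS-IL-4 by 3.25 (log2, SE 0.61, adjusted p = 0.00709, edgeR) in control and by 2.11 (log2, SE 0.51, adjusted p = 0.0252, edgeR) in Pdap1-deficient cells. RNA was taken at 48 h, and earlier times were not analysed here.

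Pathway genes outside the list are read against all genes, of which 9.33% rose and 9.99% fell with LPS-IL-4 in control cells and 5.89% and 5.57% in Pdap1-deficient cells. Counts by culture below come from fits without the mouse block. The receptors and JAK-STAT genes moved in both directions with the culture. Of 10 genes 3 rose and 3 fell with LPS-IL-4 in control cells, and 2 rose and 1 fell in Pdap1-deficient cells. Socs1, an inhibitor of JAK kinases, rose by 3.12 (log2, SE 0.49, adjusted p = 0.00530, edgeR) in control cells. Of 20 genes that lead to interferon induction, 9 rose and 4 fell in control and 6 rose and 2 fell in Pdap1-deficient cells. Tlr7, the endosomal receptor of single-stranded RNA, rose by 1.99 (log2, SE 0.14, adjusted p = 4.64e-05, edgeR) and Mavs fell by 0.66 on the log2 scale (SE 0.12, adjusted p = 0.00526, edgeR) in control cells. Of 61 other interferon-stimulated genes, 50 were tested in control cells, of which 28 rose and 1 fell, and 51 in Pdap1-deficient cells, of which 5 rose and 1 fell. The 1 that fell in both was Apol9b, chosen after its values were seen, which was at 6.82 to 9.37 CPM with LPS-BAFF-TGFβ and at most 0.0899 CPM with LPS-IL-4 in control mice.

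By genotype, 3 of the 82 pathway genes tested with LPS-IL-4 rose (3.66%) and 1 fell (1.22%), near the 2.79% and 2.12% of all genes, so the count says nothing particular about the pathway. With LPS-BAFF-TGFβ 0 of 75 passed, against 0.455% and 0.0071% of all genes. Ifnar1, a chain of the type I interferon receptor, had 78.8, 73.4 and 81.4 CPM in control and 105, 112 and 98.7 CPM in Pdap1-deficient cells with LPS-IL-4 (log2 fold change 0.42, SE 0.10, adjusted p = 0.0383, edgeR). With LPS-BAFF-TGFβ Ifnar1 had 90, 96.2 and 98.1 CPM in control and 112, 107 and 106 CPM in Pdap1-deficient cells. Tlr4, the LPS receptor, had 36.1, 41.8 and 34.5 CPM in control and 64.4, 58.7 and 73.3 CPM in Pdap1-deficient cells with LPS-IL-4 (log2 fold change 0.79, SE 0.13, adjusted p = 0.00875, edgeR), and 14, 20.8 and 19.4 CPM against 23.4, 34.5 and 35.3 CPM with LPS-BAFF-TGFβ. With LPS-IL-4 all Pdap1-deficient libraries were above all control libraries for both genes, as they were for 15.5% of all genes, and mouse 2 did not stand apart from the other Pdap1-deficient mice. Mlkl, the effector of necroptosis, had 41.3, 34.1 and 37.1 CPM in control and 54.3, 78.2 and 75.8 CPM in Pdap1-deficient cells with LPS-IL-4, and rose by 0.88 (log2, SE 0.14, adjusted p = 0.0100, edgeR). With LPS-BAFF-TGFβ Mlkl had 12.7, 13.0 and 16.2 CPM in control and 13.9, 20.4 and 16.3 CPM in Pdap1-deficient cells. Tmem173 (STING), the adaptor of cytosolic DNA sensing, had 143, 137 and 150 CPM in control and 117, 90.2 and 102 CPM in Pdap1-deficient cells, and fell by 0.49 on the log2 scale with LPS-IL-4 (SE 0.12, adjusted p = 0.0457, edgeR). With LPS-BAFF-TGFβ Tmem173 had 118, 120 and 126 CPM in control and 113, 109 and 114 CPM in Pdap1-deficient cells.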

How the data were processed

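RNA of the 12 cultures was sequenced after depletion of ribosomal RNA. The kit is a stranded total RNA kit in the study's methods and a stranded mRNA kit in the labels. The deposited values are raw counts for each Ensembl gene, which the authors made with STAR 2.6 and HTSeq 0.9.1 on GRCm38 after Trim Galore 0.6.1, per the labels. The annotation release and strand setting are not given in the sources used here. A deposited table of normalized values was not used. Symbols, positions and exon lengths came from GENCODE M21 and promoter sequences from RefSeq, both on GRCm38.

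Counts were filtered (filterByExpr), scaled (TMM) and tested for each comparison alone with the robust quasi-likelihood F test of edgeR 4.0.16 in R 4.3.3, with Benjamini-Hochberg adjustment over all genes tested and a threshold of 0.05. SE is the log2 fold change divided by the root of F. CPM values use 1 scaling of the 12 libraries. RPKM divides CPM by the union of exons. The SE and p-values rest on 3 mice per group, so the spread between mice limits the precision. No library was a copy of another of its group, and pairs across groups were not checked. Simulated counts served as a check of the steps. There DESeq2 exceeded its threshold for false calls when 3 libraries were set against 3. Its calls are therefore given only as an alternative and carry less weight. Alternatives were DESeq2 1.42.0, its size factors, other filters, thinning, blocks, 1 fit of all libraries and leaving out mice.

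Members and lists were chosen with earlier results of these data known. Values in every library are given for the member of each class with the smallest p by genotype (LPS-IL-4), the smallest p by culture (control cells) or the highest CPM, and for pathway genes called by genotype. Other members and genes named were chosen after their values were seen. The series description assigns both cultures to the same animals, so the mouse was used as a block. Deviations of both cultures of a mouse correlated over 15794 genes at -0.181, 0.341 and -0.0228 in control mice 1, 2 and 3 and at 0.579, 0.622 and 0.293 in Pdap1-deficient mice. Different-numbered mice correlated between -0.407 and 0.366 in control and between -0.576 and 0.0124 in Pdap1-deficient animals. These correlations thus do not bear out the pairing of the control cultures, which the series description gives. In control mice 1, 2 and 3 Xist was at 839, 0.989 and 718 CPM with LPS-IL-4 and 980, 2.8 and 926 CPM with LPS-BAFF-TGFβ. Sex thus matched for control mouse 2, but it cannot tell control mice 1 and 3 apart. Some items are not reported here.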

Additional observations from a re-analysis of the deposited data

How the results depend on the processing

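With 3 mice per group the design is small, and 1 control library is far deeper than the others. The main limits are the spread among the Pdap1-deficient mice and the myeloid transcripts that move with it. The cause of each change below was not tested. By genotype with LPS-IL-4, DESeq2 called 1 member, and so did the fit without control mouse 1 and Pdap1-deficient mouse 2. That fit was chosen after seeing the data and called 800 of 14880 genes. Leaving out 1 mouse at a time gave between 0 and 15 called members (15 without Pdap1-deficient mouse 1 and 2 without mouse 2). For the culture in control cells, 18 members were called in the fit of all 12 libraries, and between 25 and 33 with 1 mouse left out. In Pdap1-deficient cells, 23 were called by DESeq2, 39 with the mouse as a replicate block, 21 in the fit of all 12 libraries, and between 4 (without mouse 3) and 16 (without mouse 1) with 1 mouse left out. Blocked fits with 1 mouse left out were chosen after seeing the data and leave 1 residual degree of freedom, so they carry little weight. Without Pdap1-deficient mouse 2 the blocked fit of Pdap1-deficient cells called 35 members and 3640 of 14515 genes. Without control mouse 1 that of control cells called 40 members, 1 of them lower, and 5281 of 14629 genes. No member was called for the genotype with LPS-BAFF-TGFβ or for the difference between cultures under the alternatives run, the replicate block included. Over all genes, edgeR called 741 by genotype with LPS-IL-4 (1217 by DESeq2, 1694 without a filter, 69 to 1759 with 1 mouse left out) and 65 with LPS-BAFF-TGFβ (172, 257 and 19 to 116, and 133 in the fit of all 12 libraries). By culture it called 2874 in control cells (921 to 4009 with 1 mouse left out) and 1675 in Pdap1-deficient cells (3854 with the block, 346 to 2398 with 1 mouse left out).

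By genotype with LPS-IL-4, 16 of the 40 fitted log2 fold changes turned from above to below 0 without Pdap1-deficient mouse 2, and 2 (Bst2 and Ifit1) turned above 0 without mouse 1. All settings were run by genotype with LPS-IL-4 for the 7 members with the smallest p of their class, and by culture for all 40. Tap1 by genotype with LPS-IL-4 was between -0.14 (without Pdap1-deficient mouse 2) and 0.25 with 1 mouse left out, and -0.19 without that mouse and control mouse 1. By culture in control cells Samd9l was 0.000566 with DESeq2, 0.00575 without a filter, 0.00206 with the replicate block, and between -0.23 and 0.16 with 1 mouse left out. Ifi27l2a was 0.11 with the block, between -0.64 and 0.79 with 1 mouse left out (the latter without control mouse 1) and 0.76 with the block and without that mouse. Between genotypes the mouse number is shared by different animals, and with it as a replicate block 0 members were called in either culture. Over all genes that block called 641 of 15074 with LPS-IL-4 and 48 of 14079 with LPS-BAFF-TGFβ. The deviations of same-numbered mice correlated between -0.205 and 0.103.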
